A study of Mus musculus with 5 samples.

Results

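Interferon response genes were followed in Langerhans cells, phagocytes that live in the epidermis, as 33 genes chosen by symbol from the 27179 genes of the count table. All 33 were found there. Each library was made from 5000 cells purified from skin of mice 1 week old, on the C57BL/6 background. The mice carried a conditional knockout of Suz12 (Suz12 cKO, 3 biological replicates) or were wild type (WT, 2 biological replicates). The Suz12 protein belongs to the Polycomb complex that methylates histone H3 (PRC2). What drives the deletion, and whether animals were pooled, is not given in the sources used here.

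Interferons are secreted proteins that cells release on sensing viral nucleic acid or other danger. Type I and type III interferons act through receptors, Jak kinases and a complex of transcription factors with Stat2 and Irf9, which binds the interferon-stimulated response element (ISRE) in the promoters of target genes. Interferon gamma acts mainly through a different site (GAS). Many target genes are kept at a low basal level in resting immune cells and are induced strongly on exposure, which makes them a common readout of interferon tone.

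The libraries held 12090062 to 25725900 counts in Suz12 cKO and 17041996 to 18656968 in WT, with 9103 to 10220 and 9275 to 9852 genes counted. Levels are given as CPM, the count relative to the TMM-normalised library size. A gene with 0 counts could lie at up to 0.106 to 0.258 CPM, which is 3 counts in each library. This floor and the intervals below cover counting error only, because the reads were amplified and carry no molecular identifiers. The targeted gene Suz12 had 0, 0 and 7 counts in the Suz12 cKO libraries, against 88 and 39 counts in the WT libraries. All 10 Langerhans cell markers were counted, with a summed level of 107574 to 112941 CPM in Suz12 cKO and 97981 to 119719 CPM in WT. Most of that sum came from Cd74, H2-Aa and H2-Ab1. Cd207 lay at 14596.5, 6639 and 8393 CPM in Suz12 cKO, against 7584 and 7417 CPM in WT. The source label names alveolar macrophages for every sample. Of 5 markers of those cells Siglecf, Car4 and Chil3 were at 0 in all libraries, while Ear2 lay at 70.7, 63.8 and 250.4 CPM in Suz12 cKO, against 466 and 121.6 CPM in WT, and Marco at 0 in Suz12 cKO, against 45.7 and 0.118 CPM in WT. The list summed to 63.8 to 250.4 CPM in Suz12 cKO and 121.7 to 512 CPM in WT, highest in WT replicate 1.

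The promoters of several members show the element through which interferons act. The ISRE core, written GAAA, any 2 bases and GAAA, was searched on both strands of RefSeq promoters on GRCm38.p6, the assembly also called mm10. The search covered the 250 bases upstream of the start on which each promoter is set. That start can differ from the outer end of the gene span. A promoter was found for 26 of the 33 members, and the motif lay in 13 of these 26 (50%), against 3.46% of the 27025 genes with a promoter. The shorter interferon gamma site, TTC, any 3 bases and GAA, which reads the same on both strands, lay upstream of 5 of the 26 members (19.2%) and of 8.13% of all genes. Such a match is a run of letters and not a measured binding site. Matches can overlap one another, as the 3 of Isg15 do. The 200 bases upstream of the start are shown, 5′ to 3′ on the strand of the gene and with the ISRE core in capitals, for 3 members that were counted in every library and for 4 members of the kind that was at 0 in at least 1 library. They are Isg15 (chr4:156200819-156201018, minus strand), Oas1a (chr5:120907526-120907725, minus strand), Bst2 (chr8:71537473-71537672, minus strand), Ifit1 (chr19:34640689-34640888, plus strand), Ifit3 (chr19:34583329-34583528, plus strand), Ifit3b (chr19:34607757-34607956, plus strand) and Rsad2 (chr12:26456453-26456652, minus strand).
Isg15: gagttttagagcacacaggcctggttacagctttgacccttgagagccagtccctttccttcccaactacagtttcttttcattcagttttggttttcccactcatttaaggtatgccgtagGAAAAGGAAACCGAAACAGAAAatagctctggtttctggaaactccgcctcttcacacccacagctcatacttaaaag
Oas1a: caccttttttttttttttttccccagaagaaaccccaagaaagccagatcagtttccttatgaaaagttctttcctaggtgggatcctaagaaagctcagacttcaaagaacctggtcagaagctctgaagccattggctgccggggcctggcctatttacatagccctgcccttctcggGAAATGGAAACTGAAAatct
Bst2: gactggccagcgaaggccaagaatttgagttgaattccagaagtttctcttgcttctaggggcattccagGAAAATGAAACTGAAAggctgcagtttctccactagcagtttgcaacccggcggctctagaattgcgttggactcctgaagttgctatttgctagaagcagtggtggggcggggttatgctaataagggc
Ifit1: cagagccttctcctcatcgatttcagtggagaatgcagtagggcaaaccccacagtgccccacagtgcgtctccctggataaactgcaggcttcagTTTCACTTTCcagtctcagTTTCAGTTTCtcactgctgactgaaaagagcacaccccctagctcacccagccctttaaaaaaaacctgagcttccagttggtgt
Ifit3: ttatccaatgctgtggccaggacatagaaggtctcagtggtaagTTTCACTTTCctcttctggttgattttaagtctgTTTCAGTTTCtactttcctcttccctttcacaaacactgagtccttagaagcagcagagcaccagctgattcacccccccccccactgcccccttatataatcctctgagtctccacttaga
Ifit3b: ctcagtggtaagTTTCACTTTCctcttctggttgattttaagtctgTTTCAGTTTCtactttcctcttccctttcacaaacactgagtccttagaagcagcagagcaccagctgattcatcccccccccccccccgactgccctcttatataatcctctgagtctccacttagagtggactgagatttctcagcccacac
Rsad2: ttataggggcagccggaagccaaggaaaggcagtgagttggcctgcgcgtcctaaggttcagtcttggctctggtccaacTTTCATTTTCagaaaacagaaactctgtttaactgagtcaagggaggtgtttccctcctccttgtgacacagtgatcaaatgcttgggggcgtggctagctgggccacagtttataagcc

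Genes with the motif were found both among members counted everywhere and among members missing from whole libraries. Upstream of Ifit3 and Ifit3b the 2 matches lay 156 and 122 bases and 188 and 154 bases before the promoter start. Both promoter starts lie inside the gene spans, which begin at 34583119 for Ifit3 and 34607530 for Ifit3b. Set on the first match and compared without gaps, 188 of 218 upstream bases (86.2%) were identical between these neighbouring genes. A run of C is longer in Ifit3b, so the bases after it did not line up. The share with gaps allowed was not computed.

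The basal level in WT cells was led by a small group of effectors. To compare genes, CPM was divided by gene length in kilobases (RPKM), with the length deposited in the table. Ifitm3, a membrane protein that hinders virus entry, lay at 138.7 and 78.4 RPKM in the WT libraries. Bst2 (tetherin), which holds budding virus at the cell surface, lay at 133.5 and 65.9 RPKM. Next came Cxcl10, a chemokine for T cells, at 37.1 and 62.2 RPKM, Oas1a, a synthetase of the 2-5A messenger that activates RNase L, at 52.3 and 35.5 RPKM, and Isg15, a ubiquitin-like modifier, at 40.0 and 45.5 RPKM. The ranges of Ifitm3 and Bst2 overlapped each other, as did those of Cxcl10, Oas1a and Isg15, so the order inside these groups is not settled by 2 libraries. Among the 11295 genes counted in WT, 90.0% had a mean RPKM below that of Ifitm3 and 82.1% below that of Isg15. The median of these genes was 4.81 RPKM.

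A step lower were Irf7, the factor that amplifies interferon production, at 18.9 and 7.10 RPKM in WT, the apoptosis-linked Xaf1 at 4.66 and 14.0 RPKM, and Ifit1, which binds foreign RNA caps, at 7.82 and 7.73 RPKM. The other members counted in WT had means of 0.994 (Stat2) to 7.30 RPKM (Usp18), and 8 members had no count in either WT library: Gbp2, Oasl2, Mx2, Oas2, Iigp1, Oas3, Cmpk2 and Ifi44. In Suz12 cKO the highest mean RPKM belonged to Ifitm3 (140), Bst2 (81.6), Isg15 (35.9), Cxcl10 (29.0) and Rtp4 (27.6), so 4 of the 5 leading genes were those that led in WT.

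**Figure D1:**
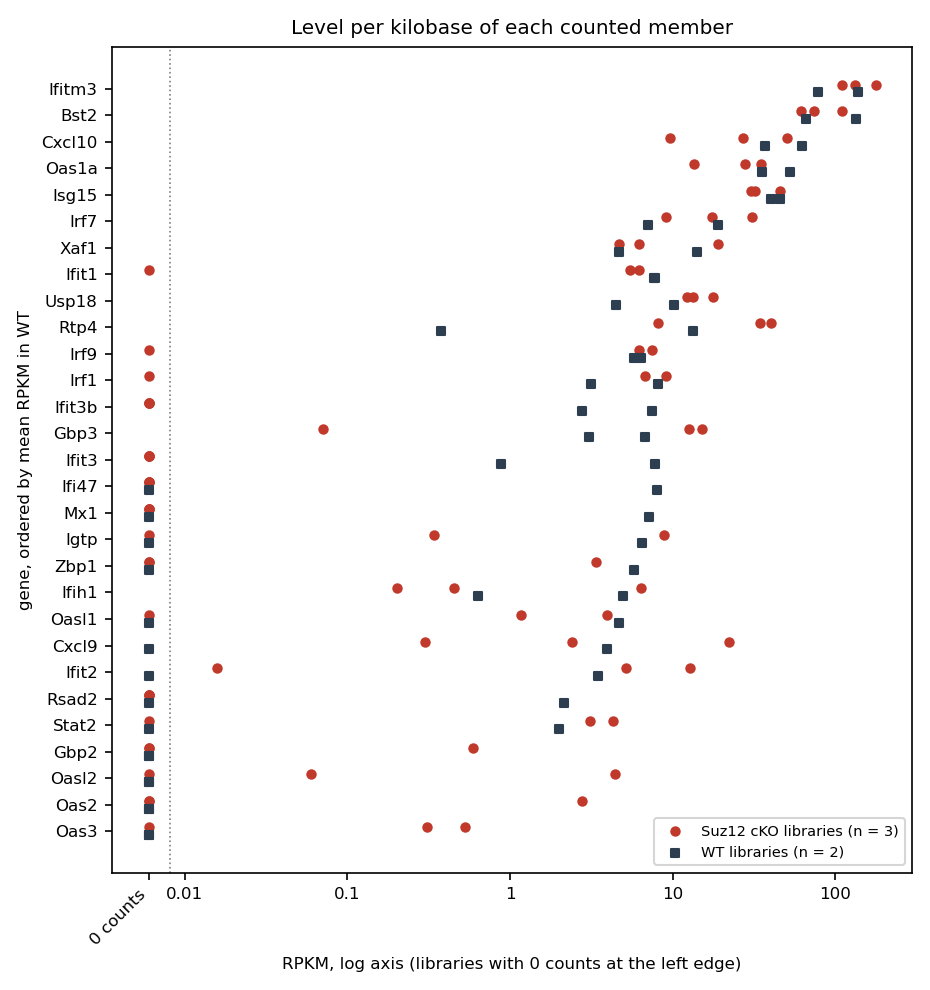
Level per kilobase (RPKM, log axis) of the 29 members counted in at least 1 library, ordered by the WT mean; circles are the 3 Suz12 cKO libraries and squares the 2 WT libraries, with libraries at 0 counts at the left edge. The 7 genes at the top were counted in every library, while many below Xaf1 had libraries at 0 in 1 or both genotypes.

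Detection was patchy from library to library. At least 1 count was seen for 18, 21 and 19 of the 33 members in Suz12 cKO replicates 1 to 3, against 23 and 18 in WT replicates 1 and 2. At 10 CPM or more lay 14, 16 and 14 members in Suz12 cKO, against 19 and 13 in WT. The genotypes overlapped in both measures, and WT replicate 1 held the highest number in each. The summed level of all members was 494, 577 and 577 CPM in Suz12 cKO, against 644 and 452 CPM in WT, so the WT libraries lay at both ends. Over the genes tested, log2(CPM + 1) correlated between libraries at 0.70 (Suz12 cKO replicate 1 with WT replicate 1) to 0.75 (the 2 WT libraries). In such bulk samples fewer cells expressing a gene, less RNA per cell and RNA lost before counting cannot be told apart.

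**Figure D2:**
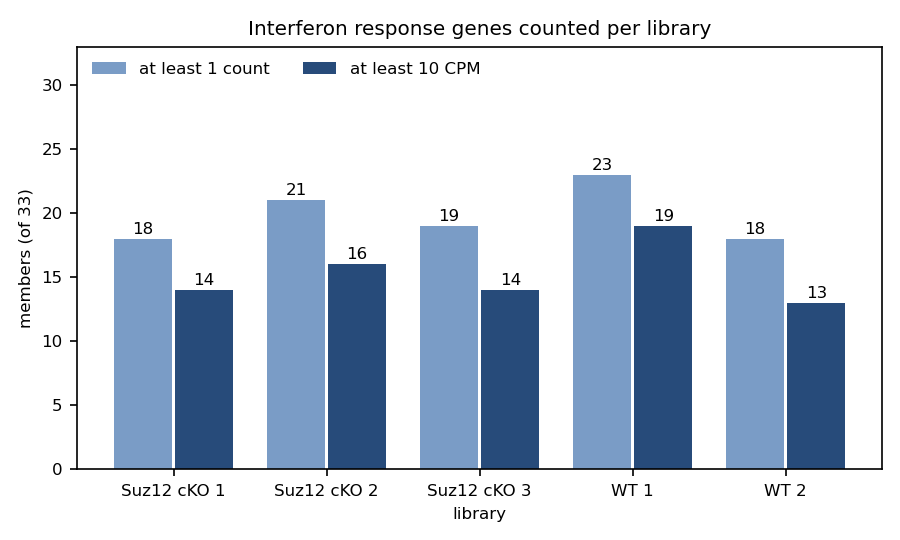
Number of the 33 members with at least 1 count (light bars) and at 10 CPM or more (dark bars) in each library, Suz12 cKO at left and WT at right. The bars reach 18 to 21 members in Suz12 cKO and 18 to 23 in WT for at least 1 count.

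Of the 33 members, 11 were counted in all 5 libraries, 18 in some, and 4 in none (Cmpk2, Ifi44, Iigp1 and Mx2). Over the whole count table, 22.7% of genes were counted in every library and 50.4% in none. A member was called all-or-none where it had 0 counts in at least 1 library and 10 CPM or more in another. This held for 14 of the 25 members that reached 10 CPM anywhere (56.0%), against 39.1% of 9345 genes. The share depended on level: with a mean under 10 CPM it was 9 of 9 members against 85.3% of genes, with a mean of 10 to 50 CPM 5 of 13 members (38.5%) against 29.7%, and at 50 CPM or more 0 of 3 members against 0.449%. Such gaps were seen within a genotype too, where 6 of the 22 members with 10 CPM or more in a WT library were at 0 in the other WT library (27.3%), against 13.8% of genes.

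**Figure D3:**
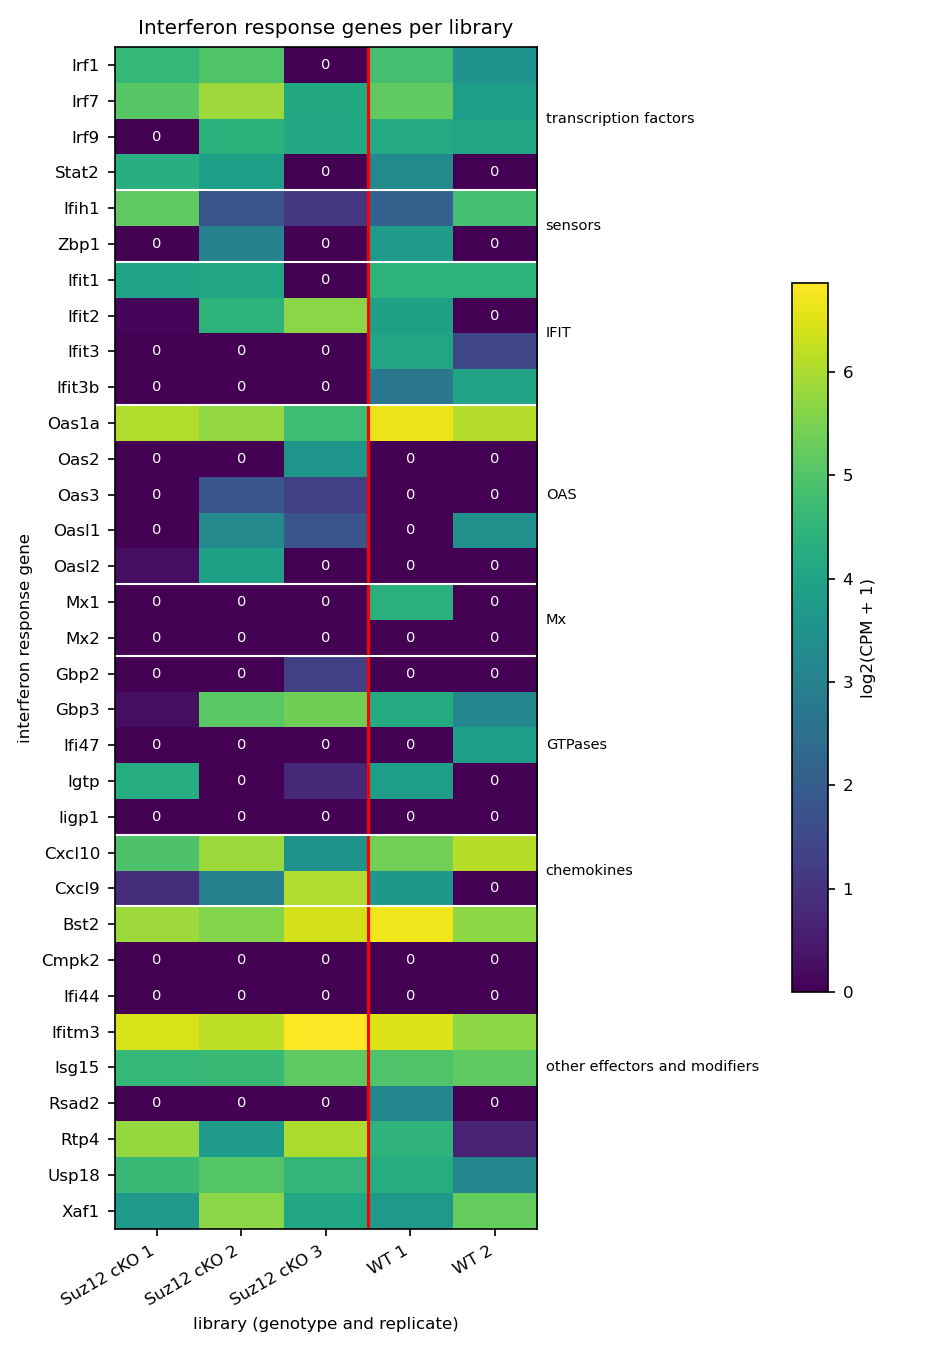
Level of each member, log2(CPM + 1), in the 3 Suz12 cKO libraries (left of the red line) and the 2 WT libraries (right), grouped by role; a white 0 marks a library with no count. Ifit3 and Ifit3b are at 0 in every Suz12 cKO library, and Mx1, Rsad2 and Ifi47 were counted in 1 WT library alone.

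The transcription factors were present in most libraries. Irf7 lay at 32.7, 57.2 and 16.9 CPM in Suz12 cKO, against 35.2 and 13.2 CPM in WT. Irf1, an early factor of the interferon gamma response, lay at 22.7, 30.5 and 0 CPM in Suz12 cKO, against 27.5 and 10.6 CPM in WT. Irf9, the DNA-binding subunit of the complex at the ISRE, lay at 0, 20.1 and 16.7 CPM in Suz12 cKO, against 17.2 and 15.6 CPM in WT. Its partner Stat2 lay at 19.0, 13.6 and 0 CPM in Suz12 cKO, against 8.73 and 0 CPM in WT. Suz12 cKO replicate 1 thus had Stat2 without a count of Irf9, and replicate 3 had Irf9 without one of Stat2. The ranges of both genotypes overlapped for all 4 factors.

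The sensors varied widely between libraries of the same genotype. Ifih1 (MDA5), which detects long double-stranded RNA, was counted everywhere, at 35.4, 2.51 and 1.12 CPM in Suz12 cKO, against 3.49 and 27.2 CPM in WT. Zbp1, a sensor of Z-form nucleic acid that can start necroptosis, lay at 0, 7.26 and 0 CPM in Suz12 cKO, against 12.5 and 0 CPM in WT. The highest library for Ifih1 was a Suz12 cKO one and for Zbp1 a WT one.

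The IFIT family holds tetratricopeptide proteins that bind viral RNA and block its translation. Every Suz12 cKO library lay below both WT libraries for 4 of the 23 tested members (17.4%), against 10.2% of genes tested. Of these 4 members 3 were IFIT genes, among them a pair at 0 throughout Suz12 cKO. Ifit3 (chromosome 19, 34583119 to 34588982, mm10) had 0 counts in all 3 Suz12 cKO libraries, against 296 and 30 counts in WT replicates 1 and 2. The WT levels were 15.7 CPM, with an exact 95% Poisson interval of 13.9 to 17.6 CPM, and 1.77 CPM, with one of 1.19 to 2.52 CPM. Its neighbour Ifit3b (34607530 to 34613403) also had 0 counts in all Suz12 cKO libraries, against 106 and 254 counts in WT, or 5.61 CPM (4.59 to 6.79) and 14.97 CPM (13.2 to 16.9). In human cells IFIT3 stabilises IFIT1 and its binding to RNA.

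Ifit3 and Ifit3b are close copies, and 41.1% of the 75-base windows of the Ifit3 transcript occur in that of Ifit3b, at the read length of 75 bases. The counting can therefore split reads between them or drop shared ones. Their sum was 0 in every Suz12 cKO library, against 21.3 and 16.7 CPM in WT, at least 103-fold lower in Suz12 cKO on group means, with each Suz12 cKO library set to its floor of 3 counts. Over the whole count table, 0.497% of genes were counted in both WT libraries and in no Suz12 cKO library, and 2 of the 33 members (6.06%) were, namely this pair. The reverse pattern, counts in all 3 Suz12 cKO libraries and in no WT library, was seen in 0 members and 0.522% of genes. Both gene shares include the 50.4% of all genes with no count in any library, against 12.1% of the members, and are therefore low. Shares among counted genes of similar level were not computed. As the pair can share reads, its 2 genes may not be separate cases. Neither gene passed the test over all genes (edgeR quasi-likelihood adjusted p = 0.968 for each, unadjusted p = 0.0386 for Ifit3 and 0.0319 for Ifit3b). With DESeq2, Ifit3b passed (adjusted p = 0.0266) and Ifit3 did not (0.0708); over the alternatives the adjusted p ranged from 0.0266 to 1 for Ifit3b and from 0.0708 to 1 for Ifit3.

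The other IFIT genes did not share that pattern. Ifit1 lay at 14.5, 16.4 and 0 CPM in Suz12 cKO, against 20.6 and 20.4 CPM in WT. All Suz12 cKO libraries lay below both WT libraries, but the first 2 by less than 1.5-fold. Ifit2, which lies at the other end of the cluster and promotes apoptosis, went another way, at 0.0626, 20.5 and 50.1 CPM in Suz12 cKO, against 13.8 and 0 CPM in WT. Suz12 cKO replicate 3 thus had the highest Ifit2 level of all libraries and no count of Ifit1, Ifit3 or Ifit3b.

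In the OAS family, enzymes that sense double-stranded RNA and their relatives, only Oas1a was counted in every library. It lay at 65.6, 52.5 and 25.7 CPM in Suz12 cKO, against 98.9 and 67.1 CPM in WT. Each Suz12 cKO library was below both WT libraries, yet replicate 1 nearly reached WT replicate 2, and the log2 fold change of -0.79 had a standard error of 0.58 (edgeR adjusted p = 0.999). Its reads can be shared with Oas1g, where 47.6% of the 75-base windows of Oas1a occur. The rest of the family was sparse. Oas2 had counts in Suz12 cKO replicate 3 alone, at 10.7 CPM (95% exact Poisson interval 8.93 to 12.8), and Oasl2, an OAS relative with ubiquitin-like domains, lay at 0.188, 13.9 and 0 CPM in Suz12 cKO and at 0 in both WT libraries. Oas3 lay at 0, 2.48 and 1.46 CPM in Suz12 cKO and at 0 in both WT libraries (edgeR adjusted p = 0.968, unadjusted p = 0.0795). Oasl1, which restrains translation of Irf7, lay at 0, 8.43 and 2.49 CPM in Suz12 cKO, against 0 and 9.90 CPM in WT. Counts of 3 of the 5 OAS members were thus seen in Suz12 cKO libraries alone, none of them in all 3. Over all 33 members 4 were counted in Suz12 cKO alone (12.1%), against 8% of all genes, and 5 in WT alone (15.2%), against 4% of all genes. These shares include genes with no count in any library, which were 50.4% of all genes but 12.1% of the members. Such genes can show neither pattern, so the shares do not compare the members with other counted genes. Suz12 cKO has 3 libraries in which a gene can be counted, and WT has 2.

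The Mx genes encode dynamin-like GTPases that block viral replication, and Mx1 is known to be defective as a protein in most laboratory strains. Mx1 had 365 counts in WT replicate 1, or 19.3 CPM (95% exact Poisson interval 17.4 to 21.4), and 0 in the other 4 libraries. Mx2 had no count anywhere. The WT libraries thus differed from each other in Mx1, and no fold change is given.

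The guanylate-binding proteins and immunity-related GTPases attack vacuoles of intracellular pathogens and respond mainly to interferon gamma. Gbp3 lay at 0.188, 33.5 and 40.1 CPM in Suz12 cKO, against 17.7 and 8.08 CPM in WT, so Suz12 cKO libraries lay on both sides of WT. Igtp (Irgm3) lay at 17.8, 0 and 0.687 CPM in Suz12 cKO, against 13.1 and 0 CPM in WT. Ifi47 was at 0 in all Suz12 cKO libraries and in WT replicate 1, and at 13.4 CPM (11.8 to 15.3) in WT replicate 2. Gbp2 had 17 counts in Suz12 cKO replicate 3 alone and Iigp1 none anywhere. Some 8.37% of the windows of Igtp are shared with Irgm2.

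The chemokines Cxcl9 and Cxcl10 call T cells through the receptor Cxcr3. Cxcl10 was counted in every library, at 29.9, 55.2 and 10.6 CPM in Suz12 cKO, against 40.8 and 68.5 CPM in WT. Cxcl9, the more strictly interferon gamma dependent of the pair, lay at 0.876, 6.94 and 64.3 CPM in Suz12 cKO, against 11.5 and 0 CPM in WT. The library highest in Cxcl9, Suz12 cKO replicate 3, was the lowest in Cxcl10. The log2 fold change of Cxcl10 was -0.78 with a standard error of 0.83, and -1.44 without Suz12 cKO replicate 2. That of Cxcl9 was 2.06 with a standard error of 2.72 and turned to -0.53 without Suz12 cKO replicate 3.

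Among the remaining 9 effectors and modifiers, 6 were counted in every library. Isg15 lay at 22.8, 24.2 and 34.3 CPM in Suz12 cKO, against 30.2 and 34.4 CPM in WT, a 1.51-fold span from the lowest to the highest library. This was the narrowest span of the 11 members counted everywhere, whose median was 4.08-fold, against 3.79-fold over the 6163 genes counted in every library. Usp18, the protease that removes Isg15 and damps the receptor, lay at 23.8, 31.3 and 21.8 CPM in Suz12 cKO, against 17.9 and 7.90 CPM in WT. It was the single tested member with all Suz12 cKO libraries above both WT libraries, and did not pass (log2 fold change 0.99, standard error 1.13, edgeR adjusted p = 0.999). Without WT replicate 1 its log2 fold change was 1.70.

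Ifitm3 lay at 85.6, 71.3 and 114.8 CPM in Suz12 cKO, against 89.9 and 50.8 CPM in WT. For Bst2 the levels were 57.1, 47.2 and 84.1 CPM in Suz12 cKO, against 102.7 and 50.6 CPM in WT. Their log2 fold changes of 0.36 and -0.29 had standard errors of 0.48 and 0.54, and that of Bst2 turned to 0.31 without WT replicate 1. Rtp4, a chaperone of membrane receptors, lay at 53.9, 12.9 and 63.6 CPM in Suz12 cKO, against 21.0 and 0.590 CPM in WT (log2 fold change 2.01, standard error 1.53). This value was 1.04 without WT replicate 2 and 6.19 without WT replicate 1. Xaf1 lay at 12.1, 49.5 and 16.1 CPM in Suz12 cKO, against 12.1 and 36.5 CPM in WT. Rsad2 (viperin), which makes a chain-terminating nucleotide, had 153 counts (8.10 CPM) in WT replicate 1 and none elsewhere, and Cmpk2, its neighbour on chromosome 12, had none anywhere.

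No member passed the test between the genotypes at an adjusted p of 0.05 over all genes. Of the 33 members 23 had enough counts to test, and 0 were called higher and 0 lower with edgeR, as were 0% and 0% of the 9988 genes tested. At an unadjusted p of 0.05, 0 members lay higher, against 2.1% of genes, and 2 lay lower (Ifit3 and Ifit3b), against 2.05% of genes. The log2 fold change was above 0 for 10 of the 23 (43.5%, against 52.5% of genes), with a median of -0.10 for the members and 0.06 for all genes tested. With genes at 0 in a whole genotype set to their bound the median was also -0.10. Without WT replicate 1 it was 0.76. Every Suz12 cKO library lay above both WT libraries for 1 tested member, against 8.87% of genes, and below both for 4 (Ifit1, Ifit3, Ifit3b and Oas1a), against 10.2% of genes; 3 of these 4 are in 1 cluster and include the pair that shares sequence. DESeq2 called 1 member higher, Oas2 (adjusted p = 7.88e-05), against 5.13% of genes, and 2 lower, Ifit3b and Mx1 (adjusted p = 0.0266 and 6.97e-06), against 1.28% of genes. The calls of Oas2 and Mx1 each rest on 1 library with counts. The filter on low counts kept both genes out of the edgeR test, and without it edgeR called neither (adjusted p = 0.703 for each). On the genes of the edgeR fit DESeq2 called 0 members, with Ifit3b at an adjusted p of 0.108, against 1.52% of genes higher and 0.599% lower.

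**Figure D4:**
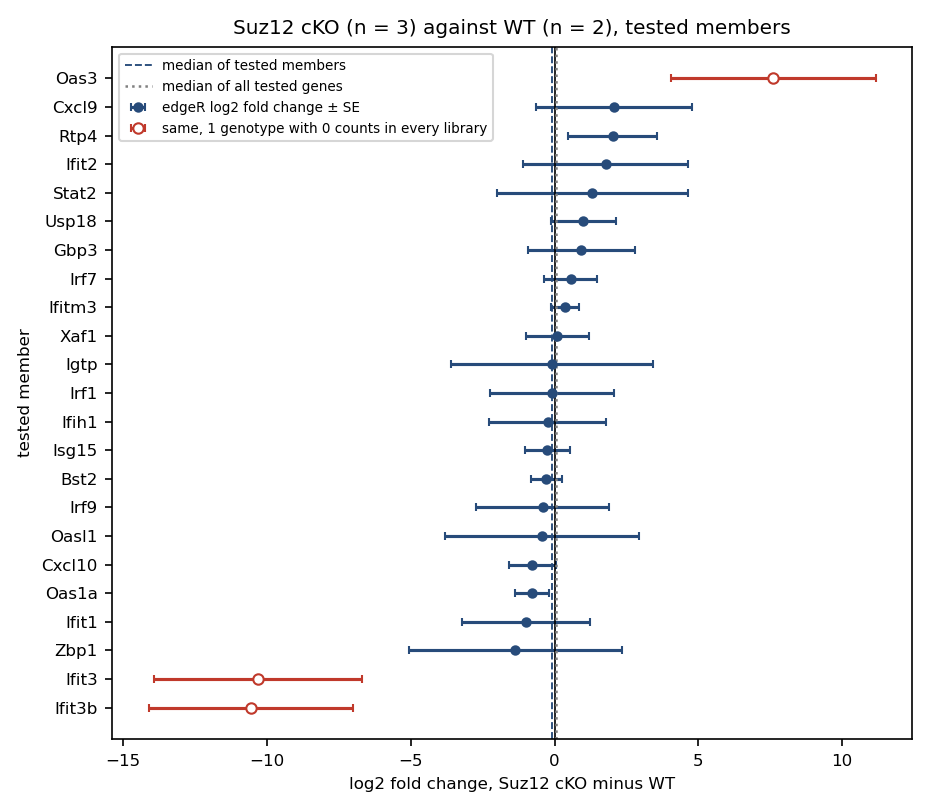
Log2 fold change, Suz12 cKO minus WT, of the 23 tested members with its standard error (edgeR); open circles are genes with 0 counts in every library of 1 genotype, whose fitted values are no measured fold. The medians of the members (-0.10, dashed) and of all tested genes (0.06, dotted) lie close to 0.

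The steps before the response genes, from a separate list of 84 pathway genes, were counted in every library for 8 of 9 receptor and kinase genes and for 3 of 13 sensing genes and adaptors. Ifnar1 (chromosome 16, 91485032 to 91510523, mm10), a chain of the type I interferon receptor, lay at 53.8, 68.7 and 63.6 CPM in Suz12 cKO, against 22.4 and 17.98 CPM in WT. The groups did not overlap, but the gene did not pass over all genes (log2 fold change 1.62, standard error 0.61, edgeR adjusted p = 0.968). Every Suz12 cKO library lay above both WT libraries for 5 of the 57 tested pathway genes, against 8.87% of all genes tested. For 6 pathway genes every Suz12 cKO library lay below both, against 10.2% of all genes tested. Its partner Ifnar2 lay at 183.9, 47.4 and 134.2 CPM in Suz12 cKO, against 95.7 and 80.1 CPM in WT, with overlapping groups.

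Irf3, the factor activated by nucleic acid sensors, lay at 9.20, 11.3 and 33.3 CPM in Suz12 cKO, against 0.582 and 20.6 CPM in WT. Irf8, which shapes dendritic cell lineages, lay at 25.1, 115.1 and 75.9 CPM in Suz12 cKO, against 135.4 and 93.6 CPM in WT. The RNA sensor Ddx58 (RIG-I) lay at 0, 50.02 and 10.6 CPM in Suz12 cKO, against 4.50 and 19.4 CPM in WT. The adaptor of DNA sensing Tmem173 (STING) lay at 0.0626, 37.9 and 39.0 CPM in Suz12 cKO, against 54.6 and 35.5 CPM in WT. Suz12 cKO replicate 1 was the lowest library for Irf8, Ddx58 and Tmem173.

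**Figure D5:**
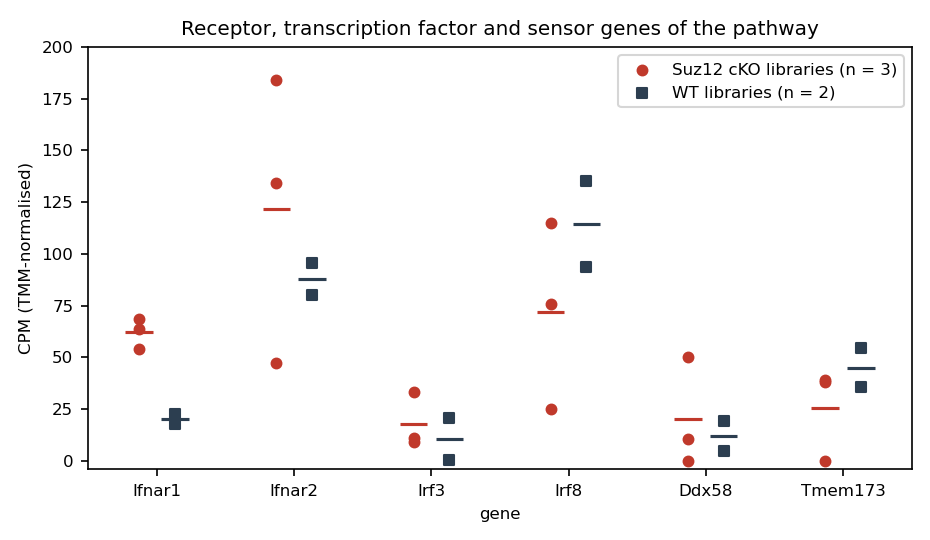
CPM of 6 receptor, transcription factor and sensor genes in the 3 Suz12 cKO libraries (circles) and the 2 WT libraries (squares), with the group mean as a bar. Ifnar1 is the one gene of these 6 whose groups do not overlap, at 53.8 to 68.7 CPM in Suz12 cKO and 17.98 to 22.4 CPM in WT. The same separation, with Suz12 cKO above, held for 8.87% of all genes tested.

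Of the 84 pathway genes 57 were tested, and 0 passed in either direction, with 29 above and 28 below a log2 fold change of 0 and a median of 0.05. At an unadjusted p of 0.05, 2 lay higher, Ifnar1 and Tap1 (3.51%, against 2.1% of all genes tested), and 1 lower, Tlr9 (1.75%, against 2.05%), shares close to the background. Tap1, a peptide transporter for MHC class I loading, lay at 53.8, 106 and 29.4 CPM in Suz12 cKO, against 16.1 and 18.6 CPM in WT. Tlr9, a receptor for unmethylated DNA, lay at 0, 0.0354 and 0 CPM in Suz12 cKO, against 0.741 and 4.66 CPM in WT. Oas1b followed on the lower side, at 0.125, 0.142 and 0 CPM in Suz12 cKO, against 14.2 and 4.72 CPM in WT (edgeR adjusted p = 0.968). Of 10 interferon genes 8 had no count in any library.

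Markers of other cell types were also counted. Keratinocyte markers, all 11 of which were counted somewhere, summed to 593 to 812 CPM in Suz12 cKO and 267 to 585 CPM in WT. Markers of plasmacytoid dendritic cells, the main producers of type I interferon, summed to 141 to 188 CPM in Suz12 cKO and 104 to 204 CPM in WT. Ccr9, Klk1 and Pacsin1 were at 0 in all libraries, and nearly all of the sum came from Siglech, Ly6d and Tcf4. Siglech lay at 51.4, 85.2 and 13.7 CPM in Suz12 cKO, against 16.2 and 135.6 CPM in WT. For Ly6d the levels were 69.8, 74.1 and 133.2 CPM, against 24.6 and 39.1 CPM. For Tcf4 they were 19.9, 28.7 and 13.2 CPM, against 63.6 and 20.9 CPM. The sum alone does not establish that such cells were present. The 7 T cell markers summed to 182 to 683 CPM in Suz12 cKO and 413 to 580 CPM in WT. Cd3g made most of that sum in every library, with 540 of the 683 CPM in Suz12 cKO replicate 1. Thy1 was counted in Suz12 cKO replicate 2 alone. The monocyte list summed to 15.7 to 60.3 CPM in Suz12 cKO and 11.4 to 88.5 CPM in WT, with Plac8 and Chil3 at 0, and was highest in WT replicate 1. In that library Ms4a4c alone made 86.7 of the 88.5 CPM, Ccr2 lay at 1.85 CPM, and Ly6c2, Vcan and F13a1 were at 0. Vcan and F13a1 were counted in Suz12 cKO libraries alone. Markers of fibroblasts and endothelium summed to 9.76, 38.9 and 159 CPM in Suz12 cKO, against 3.07 and 58.4 CPM in WT, with Cdh5 at 0. In Suz12 cKO replicate 3 Dcn made 136 of the 159 CPM. The part of these other cell types in the levels of interferon response genes was not tested.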

How the data were processed

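The authors deposited raw counts per gene for 5 libraries as a series table and as 5 files per sample, whose counts were identical, with gene lengths in bases. Per the submitters' processing notes, the build was mm10 and the counter featureCounts. Its version, the aligner, the strand setting and the handling of shared reads are not given here. Symbols came from RefSeq on GRCm38.p6 for 25275 of 27179 gene identifiers, and all 33 members and 84 pathway genes matched.

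The test was the robust quasi-likelihood F test of edgeR 4.0.16 in R 4.3.3, with its legacy setting, TMM factors, filterByExpr (minimum count 10), genotype as the one term and Benjamini-Hochberg adjustment over all tested genes at 0.05. Log2 fold changes are Suz12 cKO minus WT. The fit was tested on simulated counts. DESeq2 1.42.0, limma-voom (limma 3.58.1), other factors, filters and terms, and leaving out each library were alternatives; DESeq2 on the genes of the edgeR fit was added after seeing the data. Shared windows were sought in GENCODE vM21 transcripts. Figures used matplotlib 3.10.9.

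The members and lists were chosen with earlier results of these data known. Values in every library were given for members with the 5 smallest p-values in either direction, all-or-none members, the 8 highest in WT, and 6 fixed pathway genes plus the 2 with the smallest p in each direction. The other members were named to account for all of them, and the 7 printed promoters were picked after their values were seen. A further pathway gene of the fixed set is not reported here.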

Additional observations from a re-analysis of the deposited data

How the results depend on the processing

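The count of genes called over the whole table was 0 with edgeR, and 794 with DESeq2 (636 higher and 158 lower), 191 with DESeq2 on the genes of the edgeR fit, and 1 with the replicate number as a block. Among interferon response genes edgeR called 0 and DESeq2 3 (Ifit3b, Mx1 and Oas2). DESeq2 on the genes of the edgeR fit called 0 of them: that set does not hold Mx1 and Oas2, and the adjusted p of Ifit3b was 0.108 there, against 0.0266 on all genes. Deviations from the group means correlated at -0.027 and -0.025 across genes for replicates 1 and 2, and the block called no member. The deviations of the 2 WT libraries mirror each other, so these are not separate checks. They cannot settle whether the replicate numbers pair the libraries. With 1 library left out in turn, 0 members were called and their median log2 fold change ran from -0.12 to 0.76, against -0.10 with all libraries. Of 23 tested members 13 kept the sign of their log2 fold change under every setting in which they were tested. With the legacy setting off, Oasl1 turned to 0.00064 and Irf1 to 0.12. With the block, Gbp3 turned to -2.10, Igtp to 0.33 and Irf1 to 0.63. With a term for how the sample titles were written, Igtp turned to 1.19 and Oasl1 to 3.14. With limma-voom, Gbp3 turned to -0.79, Igtp to 0.73 and Oasl1 to 0.45. Over the fits without 1 library the log2 fold change ran from -1.99 to 9.12 for Oasl1, -0.97 to 0.19 for Irf9, -4.26 to 9.81 for Igtp, -0.78 to 1.12 for Xaf1, -3.05 to 1.87 for Ifih1, -0.53 to 11.77 for Cxcl9, -0.75 to 0.76 for Irf1, -0.71 to 0.31 for Bst2 and -2.32 to 8.47 for Zbp1. Values above 8 come from fits with a genotype at 0 and are no measured fold. All-or-none members numbered 14, and 16 where at least 5 CPM in another library was enough. The number of members counted per library moved by less than 1.5 times with at least 3 counts or 1 CPM. Counts of 0 limit a level only to the floor of each library.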

Other observations

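Some values outside the comparison were chosen after they were seen. Ifnb1, the type I interferon gene best known from sensing pathways, had 246 counts (13.02 CPM) in WT replicate 1 and 0 in the other 4 libraries, and Ifnk, an interferon of keratinocytes, had 136 counts (8.02 CPM) in WT replicate 2 alone. WT replicate 1 was also the one library with counts of Mx1, Rsad2, Eif2ak2 (59 counts) and Pml (28 counts). The share of all genes counted in that library alone was not computed. Other genes of the lists lay lower in WT replicate 1 than in WT replicate 2. Among them were Ifi47 at 0 against 13.4 CPM, Ifih1 at 3.49 against 27.2 CPM and Ddx58 at 4.50 against 19.4 CPM. Trim30a, an inhibitor of NF-kappa-B signalling, lay at 0, 5.38 and 0.172 CPM in Suz12 cKO, against 44.0 and 36.0 CPM in WT, and Ifitm1 lay at 0.313, 0.142 and 0 CPM in Suz12 cKO, against 4.39 and 12.2 CPM in WT. Neither passed over all genes (edgeR adjusted p = 0.999 for Trim30a and 0.968 for Ifitm1). Dhx58, a regulator of RNA sensing, lay at 12.5, 13.1 and 0 CPM in Suz12 cKO and at 0 in both WT libraries.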
